A study of Mus musculus with 12 samples.

Results

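The Polycomb, DNA methylation and HMGA genes described here are Ezh1, Ezh2, Eed and Suz12 of Polycomb repressive complex 2 (PRC2), Dnmt1, Dnmt3a, Uhrf1 and Hells of DNA methylation, and the chromatin architecture genes Hmga1 and Hmga2. Their probe sets, the groups of short oligonucleotides that measure 1 transcript on an Affymetrix array, were taken wherever the platform annotation assigns a probe set to exactly 1 of these 10 genes. That gave 24 of the 20380 probe sets with 1 gene, from 9 of the 10 genes. Hmga1 had no probe set of this kind and was not analysed here. A total of 18 of the 24 probe sets passed the signal filter, a mean of at least 47.0 over all 12 arrays, with at least 1 for each of the 9 genes. The 3 probe sets of Hmga2, 1 of Uhrf1 and that of Hells had means under this value in quiescent and in non-myogenic cells and so passed through the activated arrays. The other of Uhrf1, 1415810_at, averaged 48.3 in quiescent cells, with 114 on replicate 2, and 13.5 in non-myogenic cells. It too needed the activated arrays, which averaged 626, to pass. Each tested probe set of Dnmt3a averaged under 47.0 in activated cells and so passed through the quiescent and non-myogenic arrays.

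The cells were sorted from hind limb muscle of mice of the strain C57BL/6J, 8 to 12 weeks old, and fell into 3 groups of 4 arrays. Activated satellite cells were sorted as positive for SM/C-2.6, a monoclonal antibody to mouse satellite cells, and then kept for 4 days in DMEM with 20% fetal calf serum and 2.5 ng/ml basic fibroblast growth factor, and the labels give over 99% of them as MyoD-positive. Quiescent satellite cells were the SM/C-2.6-positive fraction taken straight after the sort, over 97% of them Pax7-positive. Non-myogenic cells were SM/C-2.6-negative and CD45-negative, were also taken straight after the sort, and held under 1% myogenic cells. No group carried a mutation or transgene in the labels, and the labels do not say whether animals were pooled. Only the activated cells were cultured, so that activation, culture and time since the sort cannot be told apart. Whether replicate arrays stem from different animals or dishes is not in the labels. The p-values therefore cover only the variation among these samples, possibly technical, and precision is limited by having 4 arrays in each group.

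PRC2 adds methyl groups to a lysine of histone H3, a mark of silenced genes. Ezh2 and its relative Ezh1 are its alternative catalytic subunits, Eed binds the finished mark and stimulates the enzyme, and Suz12 holds the complex together. DNA methylation is set anew by Dnmt3a and copied after each round of replication by Dnmt1, which Uhrf1 brings to newly replicated DNA. Hells is a chromatin remodeller of the SNF2 family that DNA methylation of repeats depends on in mice. Hmga1 and Hmga2 are small proteins that bind the minor groove of AT-rich DNA and are abundant in embryonic and dividing progenitor cells. In mouse muscle, Ezh2 and Hmga2 are known for roles in the expansion of satellite cells.

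The labelled cell types were set against their markers. Signals summed over 7 satellite cell and myoblast genes ran from 6150.3 to 8128 on activated, from 10634 to 15024 on quiescent and from 775 to 922 on non-myogenic arrays. In the same order of groups Pax7 averaged 90.2, 1071 and 4.07, Myod1 4629, 1277 and 36.2, and Des 1350.5, 1341 and 257. Signals summed over 8 endothelial genes ran from 144 to 164 on activated, from 1899 to 2439 on quiescent and from 9121 to 11171 on non-myogenic arrays, and over 6 fibroblast genes from 1136 to 1364, from 10605 to 18953 and from 28811 to 54010.4. All 8 endothelial and 5 of the 6 fibroblast markers averaged below the filter signal in activated cells, while none of these 14 did so in quiescent cells. Of the muscle differentiation genes, 8 summed to 14221 and 11334.5 on the activated arrays labelled with the small-sample kit but to 1194 and 1144 on those labelled with the two-cycle kit. The same 8 summed to 2046 to 5762 on quiescent arrays and to 6056 to 19525 on non-myogenic arrays. Among the activated arrays, labelling kit and state of differentiation therefore cannot be told apart. This also holds for the differences given within kits below. Over 6 leukocyte genes the sums ran from 76.9 to 96.4 on activated, 151 to 1396 on quiescent and 237 to 447 on non-myogenic arrays. The 3'/5' ratio of the Gapdh control probe sets, a sign of RNA quality and of amplification, was 1.75 ± 0.411 in activated, 4.02 ± 0.969 in quiescent and 3.87 ± 0.916 in non-myogenic cells (SD, n = 4 each). The deposited signals had trimmed means of 323 to 502 on the 5 small-sample arrays and 160.4 to 236 on the 7 two-cycle arrays, and each array was scaled to a trimmed mean of 235. Quiescent replicate 2 stood apart for the genes described here. It was the highest quiescent array for 13 of the 18 probe sets (72.2%), against 31.7% of all 12072 probe sets tested.

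Between activated and quiescent satellite cells, Hmga2 rose by all 3 of its probe sets, and the catalytic subunits of PRC2 moved in opposite directions, Ezh2 up and Ezh1 down. Dnmt1 and Uhrf1, genes of the copying of DNA methylation, rose, and so did the remodeller gene Hells. The de novo enzyme gene Dnmt3a fell by 3 of its 4 tested probe sets. Eed rose by a smaller amount and none of the 3 tested probe sets of Suz12 passed the test. In counts, 10 of the 18 probe sets were higher in activated cells and 4 lower at a limma adjusted p under 0.05, where 68.3% of all 12072 probe sets tested were called, 30.7% higher and 37.6% lower. The members' median log2 difference was 1.08, against a median of -0.12 over all probe sets. On 10 of the 18 the activated arrays lay wholly above the quiescent arrays and on 3 wholly below, as 23.7% and 27.6% of all probe sets did. These counts and the median include the probe sets of Hmga2, Hells and Uhrf1. They passed the filter through the activated arrays, so that selection favoured their being higher. The tested probe sets of Dnmt3a passed through the quiescent and non-myogenic arrays, so that selection favoured their being lower. With no signal filter, 10 of all 24 were called higher and 6 lower, against 4009 and 6388 of 20380 probe sets. In these bulk samples fewer cells of a type and less RNA per cell cannot be told apart. Without quiescent replicate 2, the counts among the 18 were 10 higher and 3 lower. The endothelial, fibroblast, leukocyte and RNA quality measures above also differed between these groups, and their part in the results was not tested.

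**Figure D1:**
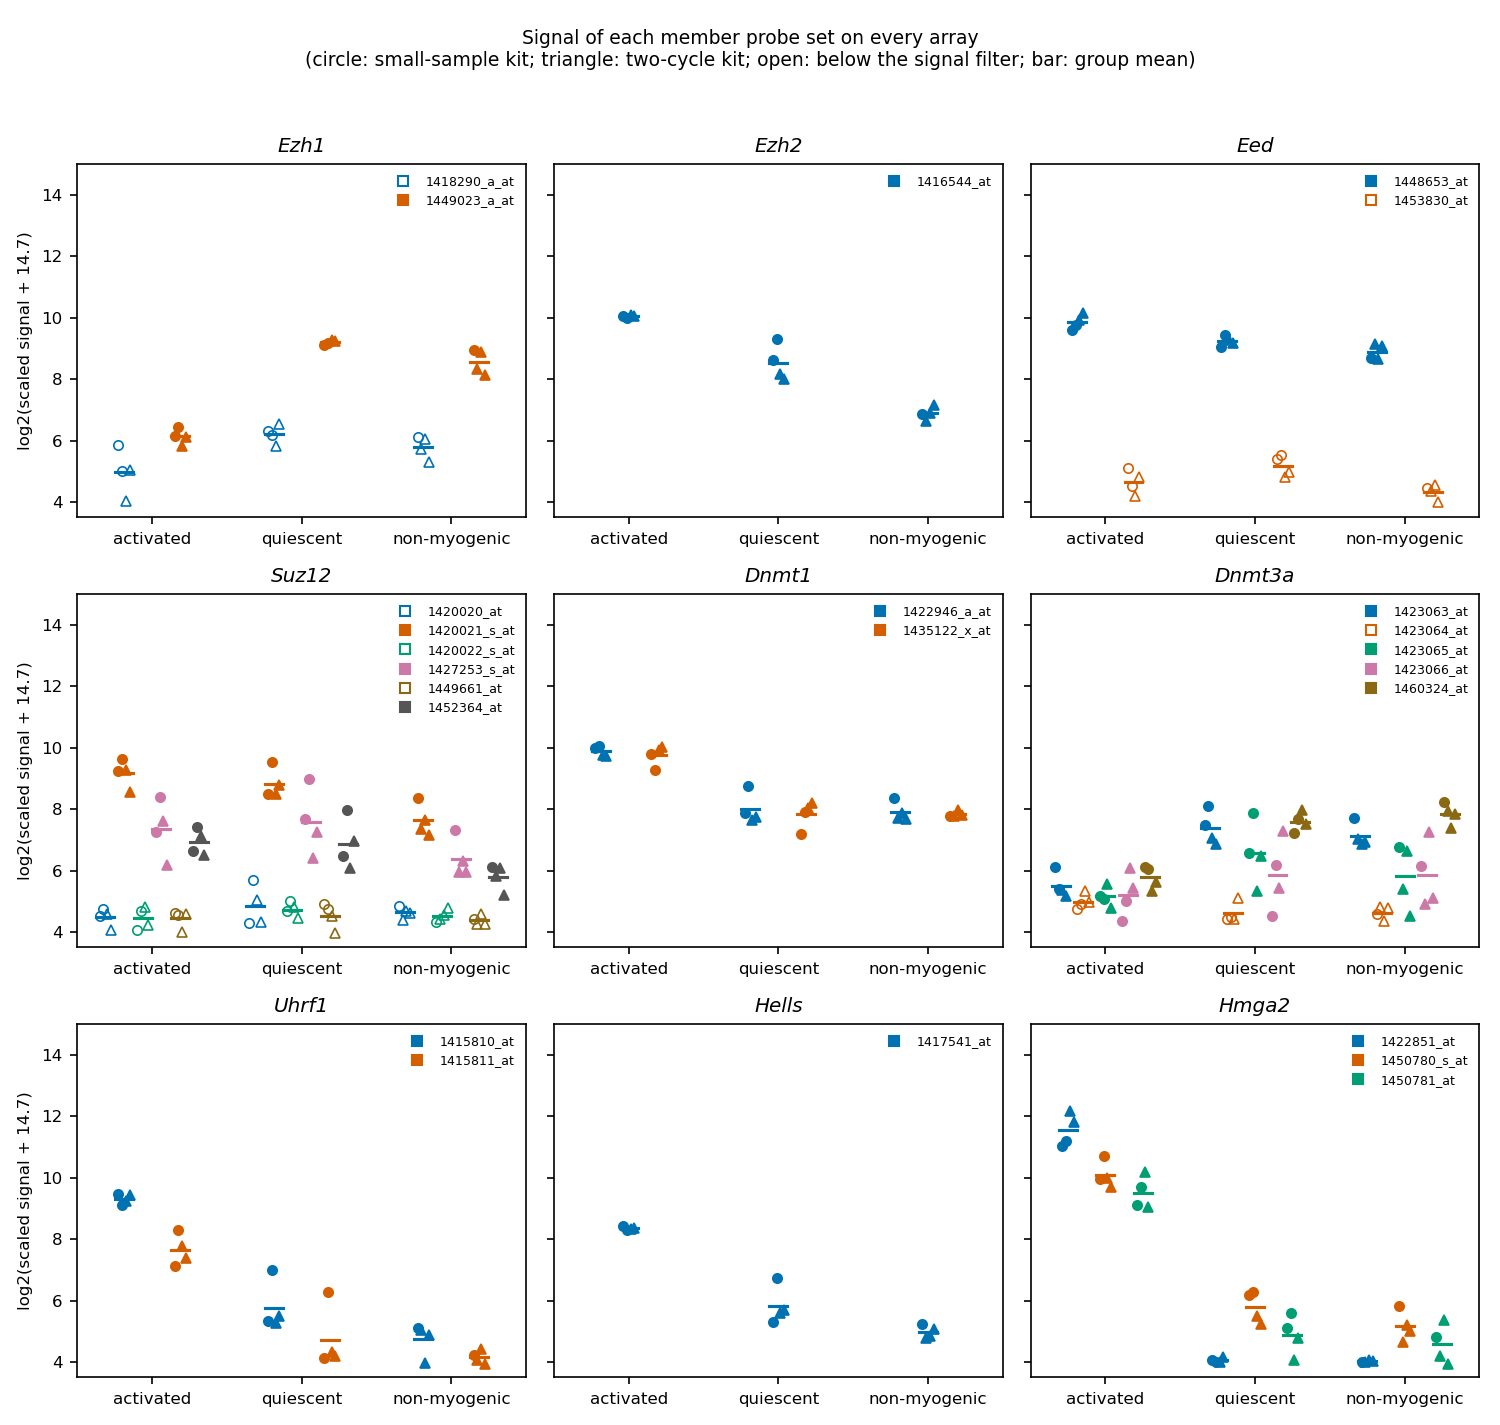
Log2(scaled signal + 14.7) of each of the 24 probe sets on the 12 arrays, with groups from left to right activated, quiescent and non-myogenic cells; circles are small-sample and triangles two-cycle arrays, open symbols are probe sets below the signal filter and bars are group means. Ezh1 1449023_a_at is low and Ezh2, Dnmt1, Uhrf1, Hells and Hmga2 are high on all 4 activated arrays.

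Ezh2, the catalytic subunit of PRC2 typical of dividing cells, was high on every activated array. Its probe set 1416544_at gave scaled signals of 1044, 1006, 1073 and 1049.7 in activated cells, against 375, 613, 272 and 239 in quiescent cells and 103, 85.0, 105 and 128 in non-myogenic cells. The groups did not overlap and stood in the order activated, quiescent, non-myogenic, with the activated arrays within a narrow range and quiescent replicate 2 the highest of its group. The log2 difference between activated and quiescent cells was 1.53 ± 0.22 (SE, adjusted p = 3.09e-05), on the scale log2(signal + 14.7), which understates changes of low signals. It was 1.07 within the small-sample arrays and 2.00 within the two-cycle arrays, and 1.77 without quiescent replicate 2.

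Ezh1, the catalytic subunit found more in cells that do not divide, showed the reverse pattern. Its tested probe set 1449023_a_at gave 56.8, 72.3, 42.5 and 55.0 in activated cells, against 533, 568, 610.4 and 586 in quiescent cells and 475, 303, 453 and 266 in non-myogenic cells. All 4 activated arrays lay below every other array, and the quiescent arrays lay above the non-myogenic ones. The difference between activated and quiescent cells was -3.06 ± 0.18 (adjusted p = 1.09e-08), with -2.84 within the small-sample arrays and -3.28 within the two-cycle arrays. Of the 12072 probe sets, 367 (3.04%) fell by more. The second Ezh1 probe set, 1418290_a_at, had a mean below the filter, with 1.72 to 43.7 in activated cells, 41.6 to 77.9 in quiescent cells and 24.4 to 54.7 in non-myogenic cells, and was not tested.

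The promoters of this pair are shown because their transcripts went opposite ways. Sequences are from RefSeq on build GRCm38.p6 and run 5′ to 3′ on the gene's strand, with position +1 at the annotated start, and capitals mark matches to the E2F-type letters TTTGGCGC, TTTCGCGC, TTTCCCGC or TTTGCCGC on either strand. E2F factors are regulators of genes used at the start of DNA replication. Ezh2 is shown from -100 to +18 (chr6:47595013-47595130, minus strand) and Ezh1 from -100 to -1 (chr11:101226464-101226563, minus strand).
Ezh2: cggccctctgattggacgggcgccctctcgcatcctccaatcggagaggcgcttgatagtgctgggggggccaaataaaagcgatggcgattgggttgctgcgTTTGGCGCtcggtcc
Ezh1: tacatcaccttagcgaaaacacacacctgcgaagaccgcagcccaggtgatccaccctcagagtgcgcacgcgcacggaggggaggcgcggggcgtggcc
The Ezh2 promoter held 1 E2F-type match, starting at +4, and 3 CCAAT boxes (CCAAT on either strand), at -90, -64 and -11. The Ezh1 promoter held no match to either in its window of 300 bases, 250 before and 50 from the start on. Over all 32851 RefSeq promoters of this length, 2.26% held an E2F-type match and 37.4% a CCAAT box.

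Eed, the subunit that reads the mark, differed less. Probe set 1448653_at gave 754, 844, 961 and 1115 in activated cells, against 508, 675, 600.4 and 564 in quiescent cells and 395, 553, 392 and 529.8 in non-myogenic cells. The lowest activated array lay above the highest quiescent array, while quiescent and non-myogenic arrays overlapped. The difference between activated and quiescent cells was 0.63 ± 0.16 (adjusted p = 0.00323); it was 0.44 within the small-sample arrays and 0.81 within the two-cycle arrays, and within the small-sample arrays alone it did not pass the test (adjusted p = 0.17). The other Eed probe set, 1453830_at, stayed at or below 31.1 on every array and was not tested.

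Suz12, the scaffold of PRC2, had 6 probe sets, of which 3 passed the filter and none passed the test between activated and quiescent cells. Probe set 1420021_s_at gave 584, 769.7, 609.9 and 360.1 in activated cells, against 347, 719, 348 and 422 in quiescent cells and 315, 149, 186 and 129 in non-myogenic cells. Activated and quiescent arrays overlapped, and both lay above the non-myogenic arrays. Its difference between activated and quiescent cells was 0.35, with a 95% confidence interval of -0.17 to 0.86 (adjusted p = 0.212), but it passed the test on unscaled values (0.65, adjusted p = 0.0222) and under median centring (0.89, 0.00249). For 1427253_s_at and 1452364_at it was -0.21 (interval -0.99 to 0.56) and 0.049 (interval -0.66 to 0.76). Probe sets 1420020_at, 1420022_s_at and 1449661_at stayed at or below 37.2 on every array and were not tested.

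Dnmt1, the enzyme that copies DNA methylation, was higher in activated cells by both probe sets. Probe set 1422946_a_at gave 992, 1052, 844 and 836 in activated cells, against 222, 413, 186 and 201 in quiescent cells and 315, 193, 219 and 192 in non-myogenic cells. Every activated array lay above every quiescent and non-myogenic array, and these other groups overlapped. Probe set 1435122_x_at, some of whose probes can match other sequences by the suffix of its name, gave 869, 598, 959 and 1015 in activated cells, against 131, 227, 248 and 278 in quiescent cells and 205, 205, 238 and 211 in non-myogenic cells. The order was the same, with quiescent replicate 1 the lowest array. The differences between activated and quiescent cells were 1.87 ± 0.17 (adjusted p = 6.10e-07) and 1.91 ± 0.18 (adjusted p = 7.75e-07). Within kits they ran from 1.70 to 2.04 for the first probe set and from 1.85 to 1.97 for the second.

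Uhrf1, which recruits Dnmt1 to replicated DNA, rose by both of its probe sets. Probe set 1415810_at gave 701, 534, 592 and 679 in activated cells, against 25.7, 114, 23.7 and 30.1 in quiescent cells and 20.0, 18.3, 1.12 and 14.6 in non-myogenic cells. The activated arrays stood far above the rest, and quiescent replicate 2 was far above every other quiescent array. Probe set 1415811_at gave 126, 301, 204 and 154 in activated cells, against 2.99, 62.6, 5.28 and 3.60 in quiescent cells and 4.13, 2.20, 6.94 and 0.499 in non-myogenic cells, again with quiescent replicate 2 alone above its group. The differences between activated and quiescent cells were 3.54 ± 0.33 (adjusted p = 5.93e-07) and 2.92 ± 0.39 (adjusted p = 1.67e-05), and without quiescent replicate 2 they were 3.93 and 3.42.

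Hells, the remodeller, followed the same order. Probe set 1417541_at gave 329, 301, 305 and 317 in activated cells, against 24.7, 91.4, 34.1 and 36.7 in quiescent cells and 23.2, 12.5, 14.1 and 19.1 in non-myogenic cells. The activated arrays lay within a narrow range above all others, and quiescent replicate 2 was again the highest of its group. The difference between activated and quiescent cells was 2.52 ± 0.24 (adjusted p = 6.91e-07), with 2.35 within the small-sample arrays and 2.70 within the two-cycle arrays.

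The promoters of Dnmt1, Uhrf1, Hells and Suz12 are shown because each held an E2F-type match, in capitals, as Ezh2 did. For Dnmt1 it is the third of 3 RefSeq promoters, from -240 to -180 (chr9:20952803-20952863, minus strand), for Uhrf1 the second of 2, from -210 to -101 (chr17:56304103-56304212, plus strand), for Hells -100 to -1 (chr19:38930890-38930989, plus strand) and for Suz12 -240 to -161 (chr11:79992866-79992945, plus strand).
Dnmt1: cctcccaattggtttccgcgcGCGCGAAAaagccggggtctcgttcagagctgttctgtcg
Uhrf1: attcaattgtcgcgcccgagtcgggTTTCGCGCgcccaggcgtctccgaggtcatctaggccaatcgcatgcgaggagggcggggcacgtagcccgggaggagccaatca
Hells: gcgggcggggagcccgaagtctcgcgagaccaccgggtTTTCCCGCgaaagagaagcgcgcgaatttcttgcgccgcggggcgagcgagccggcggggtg
Suz12: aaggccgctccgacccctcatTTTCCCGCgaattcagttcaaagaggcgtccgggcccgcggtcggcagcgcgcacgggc
The matches started at -219 in Dnmt1 (on the opposite strand, with a second at +34 outside the stretch shown), -185 in Uhrf1, -62 in Hells and -219 in Suz12. In total 5 of the 10 genes held one in any of their 16 RefSeq promoters, as did 2.6% of 27025 genes with a RefSeq promoter. Of these 5, all but Suz12 were called higher in activated than in quiescent cells, as 31.8% of all genes tested were. Eed and Hmga2, also called higher, held none. For comparison, 7 of the 20 S phase genes with a RefSeq promoter held a match. These are letter matches in a window of 300 bases and describe no binding.

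Dnmt3a, a de novo methyltransferase, went the other way from Dnmt1. Probe set 1423063_at gave 55.4, 27.1, 26.7 and 21.1 in activated cells, against 164, 261, 119 and 102 in quiescent cells and 196, 117, 101 and 108 in non-myogenic cells. All activated arrays lay below all others. Probe set 1460324_at gave 55.4, 51.8, 25.4 and 34.4 in activated cells, against 134, 188, 234 and 170.1 in quiescent cells and 288, 231, 153 and 212 in non-myogenic cells, with the same separation. The differences between activated and quiescent cells were -1.87 ± 0.19 (adjusted p = 1.26e-06) and -1.81 ± 0.22 (adjusted p = 6.45e-06). Within kits these probe sets gave -2.04 and -1.35 on the small-sample arrays, and -1.70 and -2.27 on the two-cycle arrays.

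The other probe sets of Dnmt3a were dimmer and more scattered. Probe set 1423065_at gave 21.8, 19.1, 33.1 and 12.8 in activated cells, against 80.3, 220.3, 25.4 and 73.6 in quiescent cells and 94.4, 27.5, 85.7 and 8.48 in non-myogenic cells. Activated and quiescent arrays overlapped. The difference was -1.40 ± 0.46 (adjusted p = 0.0149), -2.09 within the small-sample arrays and -0.71 within the two-cycle arrays, and the call was lost without quiescent replicate 2 (-1.05, adjusted p = 0.0576), under median centring (-1.0004, 0.0513), under quantile normalization (-1.02, 0.0662) and within the two-cycle arrays (adjusted p = 0.332). Probe set 1423066_at, with 5.66 to 53.5 in activated cells and 8.11 to 142 in quiescent cells, had a difference of -0.64 (interval -1.86 to 0.58, adjusted p = 0.326). Probe set 1423064_at stayed at or below 25.4 on every array and was not tested.

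Hmga2, an AT-hook protein of embryonic and progenitor cells, was dim in both freshly sorted populations and bright in activated cells. Probe set 1422851_at gave 2071, 2344, 4593 and 3593 in activated cells, against 2.06, 1.31, 1.17 and 3.23 in quiescent cells and 1.26, 1.20, 2.23 and 1.80 in non-myogenic cells. The quiescent and non-myogenic arrays overlapped at a few units, and no detection calls were at hand to place these values against background. The difference between activated and quiescent cells was 7.50 ± 0.18 (adjusted p = 5.11e-12). Its size is set by the pseudocount, with 9.07 at a pseudocount of 1/64 and 5.65 at 1/4 of the trimmed mean, and is neither a measured fold nor a bound.

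Both other Hmga2 probe sets showed the same separation. Probe set 1450780_s_at gave 977, 1668, 991 and 819 in activated cells, against 57.5, 63.0, 30.8 and 22.8 in quiescent cells and 41.7, 10.4, 22.6 and 17.3 in non-myogenic cells. Probe set 1450781_at gave 535, 814, 1148 and 508 in activated cells, against 19.8, 33.9, 2.20 and 12.8 in quiescent cells and 13.4, 3.51, 26.4 and 0.599 in non-myogenic cells. On neither did an activated array come near the others. Their differences between activated and quiescent cells were 4.29 ± 0.19 and 4.61 ± 0.36. Within kits the 3 probe sets gave 7.08, 4.11 and 4.04 on the small-sample arrays and 7.92, 4.47 and 5.18 on the two-cycle arrays.

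The Hmga2 promoter is shown from -150 to -1 (chr10:120476470-120476619, minus strand, RefSeq, GRCm38.p6), since all 3 probe sets of this gene rose.
Hmga2: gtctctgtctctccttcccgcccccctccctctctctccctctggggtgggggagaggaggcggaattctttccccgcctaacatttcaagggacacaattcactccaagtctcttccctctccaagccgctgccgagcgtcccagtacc
It held no E2F-type match, no CCAAT box and no CHR element (TTTGAA or TTCGAA on either strand, in 19.2% of all promoters) in its window of 300 bases. It runs over long stretches of C and T and is 57.7% G and C over the whole window.

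**Figure D2:**
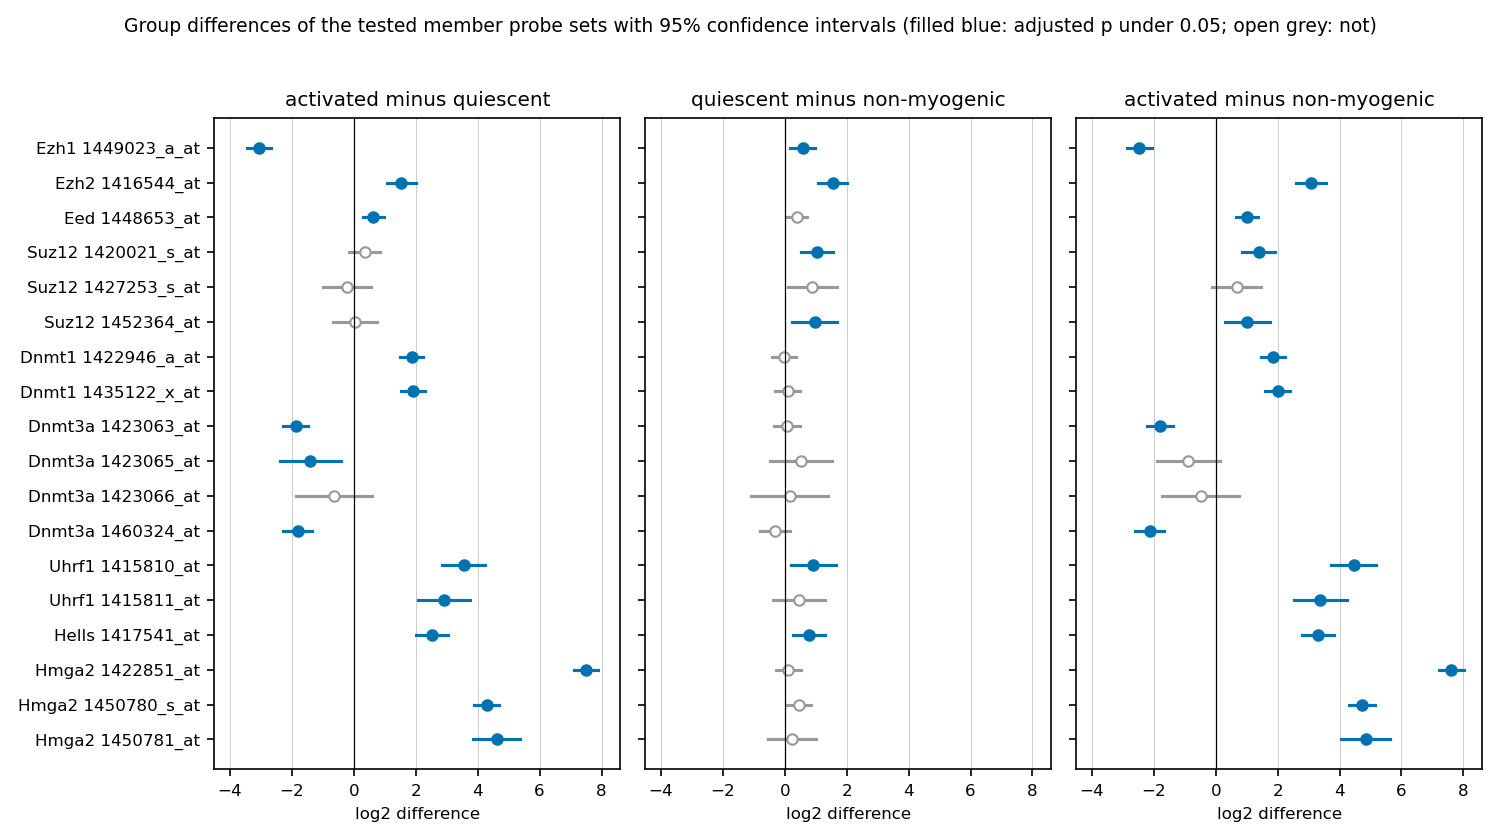
Log2 differences (x axis) of the 18 tested probe sets in 3 comparisons, with 95% confidence intervals; filled blue points passed an adjusted p of 0.05. Hmga2 1422851_at lies at 7.50 and Ezh1 at -3.06 between activated and quiescent cells, and the middle panel, quiescent against non-myogenic cells, holds smaller differences, the largest being Ezh2 at 1.55.

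Quiescent satellite cells were then set against the non-myogenic cells sorted from hind limb muscle, neither of them cultured. Ezh2 was higher in quiescent cells by 1.55 ± 0.22 (adjusted p = 6.96e-05), and by smaller amounts so were Ezh1, Suz12, Uhrf1 and Hells. Dnmt1, Dnmt3a and Hmga2 passed the test by none of their 9 tested probe sets. Of the 18 probe sets 6 were higher in quiescent cells and 0 lower, where 51.4% of all probe sets were called, 27.4% higher and 24.0% lower. At an unadjusted p under 0.05, still 0 of the 18 were lower in this limma fit. On unscaled values, at an adjusted p under 0.05, 2 were higher and 1, Dnmt3a 1460324_at, lower. Non-overlapping arrays stood higher in quiescent cells for 5 probe sets and lower for 0, against 19.1% and 18.9% of all. The members' median difference was 0.45, and that of all probe sets 0.08. Without quiescent replicate 2 the count was 4 higher, and without quiescent replicate 4 it was 3. Differences are from the fit with a term for the labelling kit, since 1 of the 4 non-myogenic arrays was made with the small-sample kit. Endothelial, fibroblast and muscle differentiation markers differed between these groups by the sums given above, and their part was not tested. Over 5 pericyte and smooth muscle genes the sums ran from 3281 to 6244 on quiescent and 6710 to 14018 on non-myogenic arrays. Over 2 erythroid genes they ran from 7.47 to 39.2 and from 276 to 894, and the part of both lists was not tested either.

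Ezh2 held its difference in both kits, with 2.07 within the small-sample arrays and 1.18 within the two-cycle arrays, and 1.35 without quiescent replicate 2. Ezh1 differed by 0.58 ± 0.19 (adjusted p = 0.019), with 0.21 within the small-sample arrays and 0.82 within the two-cycle arrays. That call did not pass without quiescent replicate 3 (0.50, adjusted p = 0.0677), quiescent replicate 4 (0.52, 0.0635), non-myogenic replicate 2 (0.52, 0.0525) or non-myogenic replicate 4 (0.47, 0.0559), nor in the small-sample arrays alone (adjusted p = 0.642).

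Suz12 was higher in quiescent than in non-myogenic cells by 2 of its 3 tested probe sets. Of these, 1420021_s_at differed by 1.04 ± 0.24 (adjusted p = 0.00303) with non-overlapping arrays, though it did not pass within the small-sample arrays (0.65, adjusted p = 0.354). The other, 1452364_at, differed by 0.96 ± 0.34 (adjusted p = 0.0289) with arrays that overlapped. For 1452364_at the values were 85.3, 155, 125 and 76.9 in activated cells, against 74.4, 238, 52.6 and 111 in quiescent cells and 54.0, 41.6, 53.4 and 22.2 in non-myogenic cells. Its call was lost without quiescent replicate 2 (0.69, adjusted p = 0.0608), quiescent replicate 4 (0.82, 0.0991), non-myogenic replicate 1 (0.94, 0.0771) or non-myogenic replicate 4 (0.81, 0.0762), and it passed within neither the small-sample arrays (1.13, adjusted p = 0.252) nor the two-cycle arrays (0.82, 0.0667). Probe set 1427253_s_at, with 139, 322, 179 and 58.5 in activated cells, against 189, 491, 69.5 and 137 in quiescent cells and 147, 47.0, 64.2 and 47.1 in non-myogenic cells, differed by 0.88 (adjusted p = 0.0595) and overlapped. It passed the test without activated replicate 3 (0.82, adjusted p = 0.0448) or 4 (0.92, 0.0471), and without quiescent replicate 1 (1.04, 0.038) or 3 (1.14, 0.0351). Quantile normalization (0.95, adjusted p = 0.0395) and a fit of these 2 groups alone (0.84, 0.0319) gave the call too.

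Uhrf1 was low in both freshly sorted populations. By 1415810_at it was higher in quiescent cells by 0.92 ± 0.34 (adjusted p = 0.0349), and without quiescent replicate 2, the array far above its group, by 0.60 (adjusted p = 0.0559). The call was also lost without quiescent replicate 4 (0.96, adjusted p = 0.0631), non-myogenic replicate 1 (0.95, 0.0729) or non-myogenic replicate 3 (0.71, 0.0955), and within either kit (adjusted p = 0.286 and 0.0564). Quantile normalization (0.79, adjusted p = 0.0756), a pseudocount of 1/4 of the trimmed mean (0.45, 0.0777), no signal filter (adjusted p = 0.0521) and a fit of these 2 groups alone (0.85, 0.0623) ended it too. By 1415811_at the difference was 0.46 (adjusted p = 0.35), and 0.046 without quiescent replicate 2. Hells was higher in quiescent cells by 0.79 ± 0.24 (adjusted p = 0.0153), and by 0.55 (adjusted p = 0.0127) without quiescent replicate 2. Within kits the Hells difference was 0.77 on the small-sample arrays (adjusted p = 0.366) and 0.75 on the two-cycle arrays (adjusted p = 0.00346). On unscaled values the calls of Ezh1 (0.21, adjusted p = 0.434), Suz12 1452364_at (0.64, 0.107), Uhrf1 1415810_at (0.62, 0.119) and Hells (0.48, 0.121) were lost. Of the 6 calls, that of Ezh2 was the only one to pass in all alternatives run.

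The remaining probe sets did not pass the test between quiescent and non-myogenic cells. Eed had a difference of 0.38 (interval 0.032 to 0.73, adjusted p = 0.0641), and passed under quantile normalization (0.44, adjusted p = 0.0332) and with a pseudocount of 1/4 of the trimmed mean (0.35, 0.0489). For Dnmt1 the differences were -0.022 (interval -0.41 to 0.36) and 0.093 (interval -0.31 to 0.49). Those of the brighter Dnmt3a probe sets were 0.069 (interval -0.34 to 0.48) for 1423063_at and -0.32 (interval -0.80 to 0.15) for 1460324_at. On unscaled values 1460324_at was lower in quiescent cells (-0.69, adjusted p = 0.0353). Dnmt3a 1423065_at and 1423066_at, with 94.4, 27.5, 85.7 and 8.48 and 56.5, 15.2, 139.6 and 20.2 on the non-myogenic arrays, had wide intervals of -0.49 to 1.53 and -1.08 to 1.40. Hmga2 1450780_s_at differed by 0.44 (adjusted p = 0.0706) and passed the test without activated replicate 1 (0.41, adjusted p = 0.046) and with a pseudocount of 1/64 of the trimmed mean (0.63, 0.0491).

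Activated cells were also set against non-myogenic cells, with the reservation that only the activated cells were cultured. The comparison shares its activated and non-myogenic arrays with those above. Of the 18 probe sets 12 were higher in activated cells and 3 lower, where 70.0% of all probe sets were called, 34.1% higher and 35.9% lower. The same 12 and 3 had non-overlapping arrays, against 28.9% and 29.5% of all probe sets. The members' median difference was 1.62, and that of all probe sets -0.042. The probe sets that passed the filter through the activated arrays are among the 12 and in this median. Dnmt3a 1423063_at and 1460324_at, which passed it through the quiescent and non-myogenic arrays, are among the 3 lower. With no signal filter, 12 of all 24 were called higher and 4 lower, against 4467 and 5480 of 20380 probe sets. Hmga2 differed by 7.61, 4.73 and 4.84, Uhrf1 by 4.46 and 3.38, Hells by 3.31, Ezh2 by 3.08, Dnmt1 by 1.85 and 2.00 and Eed by 1.01. The sizes for Hmga2, Uhrf1 and Hells depend on the pseudocount, since their non-myogenic signals were low.

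Suz12 was higher in activated than in non-myogenic cells by 1.39 (adjusted p = 0.000179) and 1.01 (adjusted p = 0.016), and the second of these, 1452364_at, missed the test without activated replicate 3 (0.82, adjusted p = 0.0686). Within the small-sample arrays neither passed (1.06, adjusted p = 0.0968, and 0.92, adjusted p = 0.264). Ezh1 was lower in activated cells, with a log2 difference of -2.48, and so was Dnmt3a, with -1.80 for 1423063_at and -2.13 for 1460324_at. Not called were Suz12 1427253_s_at (0.67, adjusted p = 0.118) and Dnmt3a 1423065_at (-0.88, adjusted p = 0.108) and 1423066_at (-0.48, adjusted p = 0.473). The Suz12 probe set passed without activated replicate 1 (0.89, adjusted p = 0.0387), under median centring (1.17, 0.00843), under quantile normalization (0.89, 0.0401) and with array weights (0.75, 0.0484). Dnmt3a 1423065_at passed without activated replicate 3 (-1.25, adjusted p = 0.0383) or non-myogenic replicate 4 (-1.23, 0.0235), on unscaled values (-1.01, 0.0427) and within the small-sample arrays (-1.64, 0.0385).

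Across the 3 groups, the levels of Ezh2 and Hells stood in the order activated, quiescent, non-myogenic with every step past the test in this fit. Uhrf1 followed that order by 1415810_at, and for Hells and Uhrf1 the step between quiescent and non-myogenic cells was lost in the settings named above. Dnmt1, Eed and Hmga2 were highest in activated cells, with quiescent and non-myogenic cells not told apart by the test. By 1420021_s_at and 1452364_at, but not 1427253_s_at, Suz12 was lowest in non-myogenic cells, with activated and quiescent cells not told apart. Steps of Suz12 from non-myogenic cells were lost in some of the settings named above. Ezh1 stood in the order quiescent, non-myogenic, activated, its step between quiescent and non-myogenic cells also being lost in the settings named above. Dnmt3a was lowest in activated cells by 1423063_at and 1460324_at, with both other groups not told apart.

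The wider Polycomb and DNA methylation genes were taken with 1 probe set a gene, and each list was set beside all 7960 genes tested, of which 31.8% were higher and 38.2% lower in activated than in quiescent cells. Among 7 PRC2 partners 0 were higher and 3 lower. Jarid2, which guides PRC2 to chromatin, was lower, with a log2 difference of -2.89 ± 0.18 (SE, adjusted p = 1.01e-08), and the Polycomb-like genes Phf1 (-1.11) and Phf19 (-0.82) were lower too, while the related Mtf2 did not pass (0.41, adjusted p = 0.0678). The list's median difference was 0.16. Between quiescent and non-myogenic cells 6 of the 7 were higher in quiescent cells, Jarid2 by 1.59, where 26.4% of genes were higher and 26.6% lower.

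PRC1, the complex that binds the PRC2 mark and ubiquitinates histone H2A, had 12 tested genes of 20 listed. In activated cells 1 was higher, the polyhomeotic gene Phc2 (0.74). Lower were 5, the chromobox genes Cbx6 (-1.49) and Cbx8 (-0.78), the ubiquitin ligase genes Ring1 (-1.33) and Rnf2 (-0.57), and Scmh1 (-0.90). Quiescent cells exceeded non-myogenic cells in 8 of the 12 and were lower in 0. The median differences were -0.23 for the first comparison and 0.57 for the second. Kdm6a, a demethylase that removes the PRC2 mark, was lower in activated than in quiescent cells (-1.75 ± 0.19, adjusted p = 2.85e-06) and higher in quiescent than in non-myogenic cells (0.53, adjusted p = 0.0373).

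Of 14 genes of DNA methylation partners 5 were tested. In activated cells Mbd3, a subunit of the NuRD repressor complex, was higher than in quiescent cells (1.17, adjusted p = 4.79e-05), and the de novo methyltransferase gene Dnmt3b (-1.35, adjusted p = 8.35e-05) and the methyl-CpG binding gene Mbd2 (-0.47, adjusted p = 0.0471) were lower. Usp7, which stabilises Uhrf1 and Dnmt1, did not pass (0.23, adjusted p = 0.139). Between quiescent and non-myogenic cells 0 of the 5 passed. The list's medians were -0.16 and 0.34.

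Of the other high mobility group genes 5 of 7 were tested. Hmgb3 (2.00, adjusted p = 4.36e-07) and Hmgb2 (1.52, adjusted p = 8.90e-07), DNA-bending proteins of dividing cells, were higher in activated than in quiescent cells, whereas Hmgn1 (0.18) and Hmgn5 (0.21) did not pass. In contrast to Hmga2, both Hmgb genes were also higher in quiescent than in non-myogenic cells, by 1.64 and 1.25. In that comparison 4 of the 5 were higher and Hmgn3 was lower (-0.40, adjusted p = 0.0436). The list's medians were 0.21 and 0.61. Of the 5 Lin28 and Igf2bp genes, partners of Hmga2 in growth control in mice, 3 had a probe set of 1 gene, and 0 of these passed the filter. Igf2bp2 and Lin28b had none and were not measured here. Igf2bp3 averaged 57.4 in activated, 38.8 in quiescent and 17.2 in non-myogenic cells, and Igf2bp1 9.19, 14.0 and 5.50. The activated mean of Igf2bp3 exceeded the quiescent mean only through 1 activated array, at 160.

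**Figure D3:**
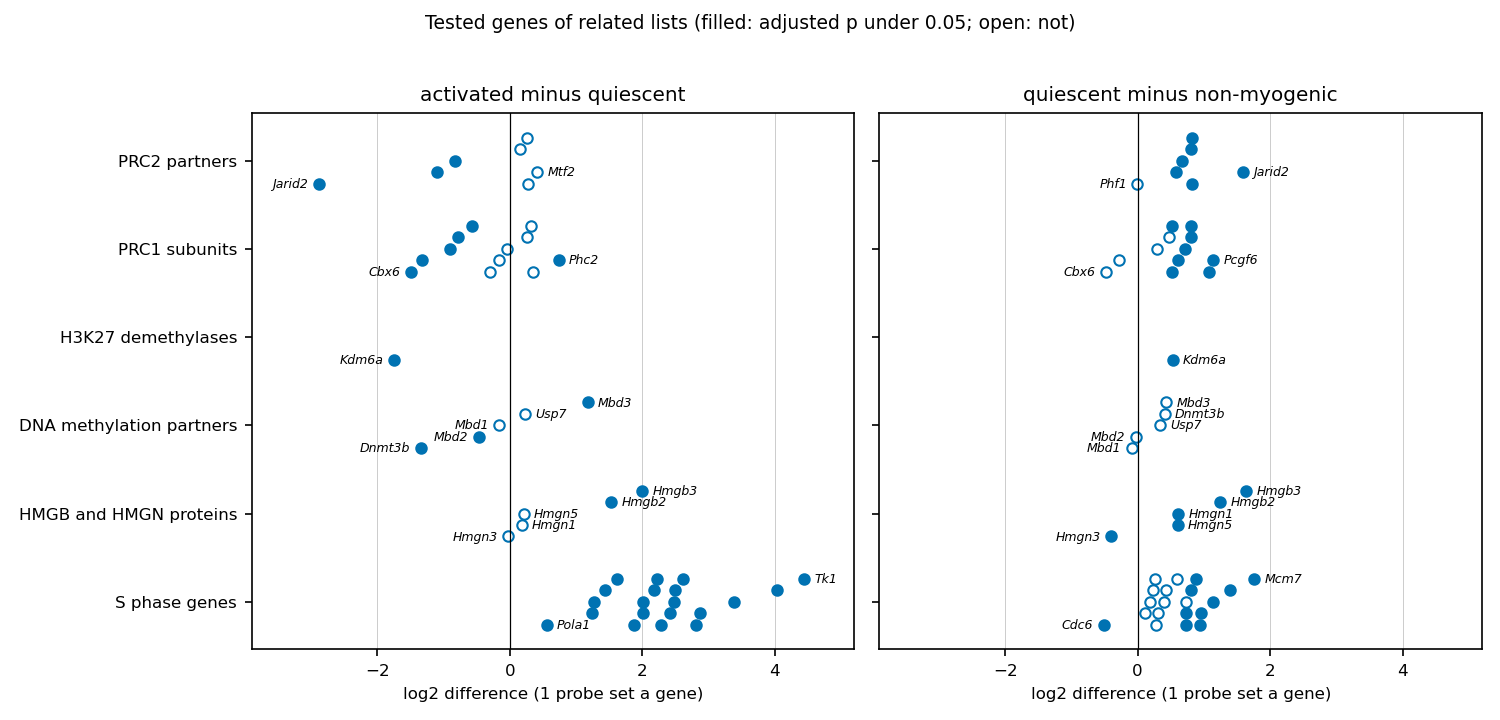
Log2 differences (x axis) of the tested genes of 6 lists, activated minus quiescent cells at left and quiescent minus non-myogenic cells at right; filled points passed an adjusted p of 0.05, and the vertical spread within a list has no meaning. All 20 S phase genes lie above 0 at left, and Jarid2 lies at -2.89.

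The genes of S phase give a measure of replication beside which the members can be read. All 20 tested of 22 listed were higher in activated than in quiescent cells, with a median of 2.26 and with Tk1 (4.44), Rrm2 (4.04), Cdc6 (3.38) and Prim1 (2.50) the genes of smallest adjusted p. Between quiescent and non-myogenic cells 9 were higher and 1, Cdc6, had a lower signal (-0.51, adjusted p = 0.0367), and the list's median was 0.66. Their mean log2 signal was 9.57, 9.59, 10.20 and 10.23 on the activated arrays, 7.16, 7.90, 7.61 and 7.67 on the quiescent arrays and 6.98, 7.09, 7.07 and 7.01 on the non-myogenic arrays. The activated arrays were thus all higher, and quiescent replicate 2 was the highest quiescent array for 13 of the 20 genes (65%). It was also the highest for 13 of the 18 tested member probe sets (72.2%), against 31.7% of all probe sets tested. Those 13 came from Ezh2, Uhrf1 and Hells, but also from Eed, Suz12, Dnmt1, Dnmt3a and Hmga2. Ezh1 was not among them, and neither was every tested probe set of Dnmt1, Dnmt3a or Hmga2. Whether the share of cells in S phase set the differences between arrays was not tested.

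**Figure D4:**
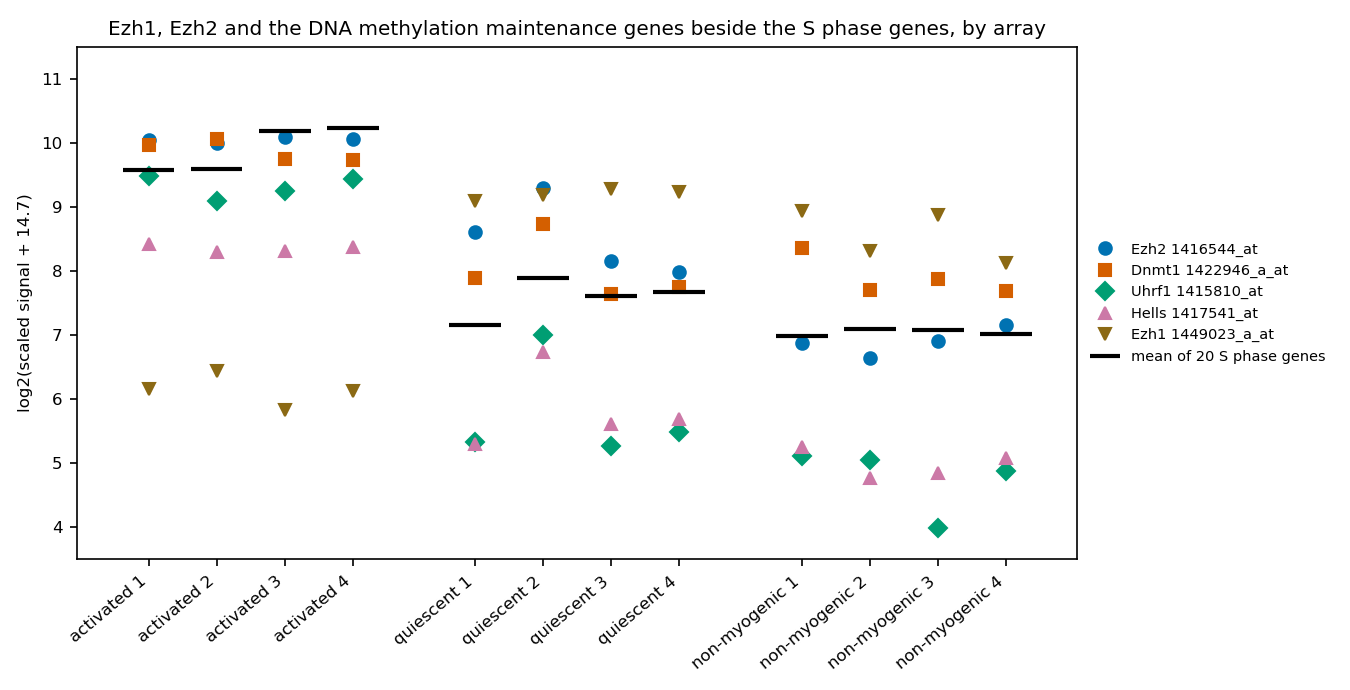
Log2(scaled signal + 14.7) of 5 member probe sets on each of the 12 arrays (symbols) with the mean of 20 S phase genes (black bars), arrays from left to right activated, quiescent and non-myogenic. Quiescent replicate 2 holds the highest Ezh2, Dnmt1, Uhrf1 and Hells of its group, and Ezh1 is low only on the activated arrays.

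Genes with the most similar profile over the 12 arrays were listed for each member by Pearson correlation of log2 signal among 7959 genes, as a description, since the 12 points fall in 3 groups that share culture state and cell type. Uhrf1 was most like Cenpk (r = 0.991), Hells (0.991) and Nup85 (0.99), and Hells most like Dsn1 (0.993), Uhrf1 (0.991) and Cenpk (0.99). Cenpk and Dsn1 encode kinetochore proteins. Ezh2 was most like Gsto1 (0.988), the cyclin-dependent kinase partner gene Cks2 (0.987) and the replication licensing gene Cdt1 (0.986). Dnmt1 had Zbed4 (0.989), Aaas (0.981) and Dusp14 (0.98) as neighbours, and Eed had Rexo4 (0.981), 2810004N23Rik (0.971) and Acp1 (0.963). Hmga2 1450780_s_at was nearest to Egln3 (0.99), Gpn1 (0.99) and B3gnt5 (0.986). For Ezh1 the neighbours were Arvcf (0.99), Cadps2 (0.988) and Gpx3 (0.986), and for Dnmt3a Galnt4 (0.987), Zfp532 (0.983) and Rnf103 (0.978). Suz12 1420021_s_at had lower values, with Irak1bp1 (0.959), Six4 (0.956) and Map2k3os (0.95).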

How the data were processed

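RNA of sorted mouse muscle cells was hybridised to Affymetrix Mouse 430A arrays, 12 in 3 groups of 4 taken from the labels. The deposited values are MAS5 signal intensities per probe set, per the submitters' processing notes; the MAS5 version is not given in the sources used here, and no detection calls were used. Arrays differed in level with the labelling kit, so signals were rescaled to 1 shared trimmed mean, 235 (2% off each tail). Of 22690 probe sets, 20380 had 1 gene in the platform annotation, 691 several and 1555 none, and 64 were controls. The 12072 probe sets with 1 gene and a mean scaled signal of at least 47.0 over the 12 arrays were tested with limma 3.58.1 (R 4.3.3), lmFit and eBayes, on log2(signal + 14.7), the pseudocount being 1/16 of the trimmed mean, with the kit as a covariate and Benjamini-Hochberg adjustment over all of them (threshold 0.05). Promoter windows and figures were made with Python 3.11.15 and matplotlib 3.10.9. The members and lists were chosen with earlier results of these data known. All members are named, and of other lists the genes of smallest adjusted p, those called against their list's direction, and all genes where a count was 5 or fewer. For the likeness measure, the 3 genes with the highest correlation are named. In simulated data for activated against quiescent cells (12072 probe sets, 200 of them changed), 77% of 2-fold and 97% of 4-fold changes were recovered, and 13 unchanged probe sets were called. Far fewer were changed there than the 68.3% called in the data, and the noise was independent between arrays. The simulation therefore cannot give the recovery or the false calls of the real comparison. Alternatives changed the scaling, pseudocount, filter, kit term, arrays used, choice of probe set and replicate block.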

Additional observations from a re-analysis of the deposited data

Results flagged for a closer look

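In 4 of 72 groups of 4 arrays 1 array stood apart from the rest, its gap to the nearest array exceeding Dixon's critical share of the group's range; chance gives about 1 in 20 groups. Both tested probe sets of Uhrf1 were high on quiescent replicate 2. There 1415810_at had a log2 signal of 7.003 (scaled signal 114), against 5.26 to 5.49 on the other quiescent arrays, and 1415811_at 6.27 (62.6), against 4.14 to 4.32. The other 2 were below the signal filter. Suz12 1449661_at had a log2 signal of 3.99 on activated replicate 3, against 4.57 to 4.61 on the other activated arrays. Dnmt3a 1423064_at had 5.09 on quiescent replicate 4, against 4.41 to 4.48 on the other quiescent arrays. The cause of these values was not tested.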

How the results depend on the processing

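In the 25 to 27 alternatives that gave each member a value, of 28 run, 12 of the 14 member calls between activated and quiescent cells, 1 of 6 between quiescent and non-myogenic cells (Ezh2) and 13 of 15 between activated and non-myogenic cells passed in all. Of 1416 recomputed member values, 39 lost and 21 gained a call and 33, none of them called, changed sign; the causes were not tested. Counts are given as activated against quiescent, quiescent against non-myogenic and activated against non-myogenic cells. With 1 probe set a gene, 8 and 9 members were called in the first and last comparison, and averaging probe sets by gene 7 and 8, where fewer features were tested; over all probe sets that average gave 5396, 4121 and 5554 calls. Between quiescent and non-myogenic cells, 3 members were called on unscaled values (2 higher, 1 lower) and 1 (of 2072 calls) on small-sample arrays alone, where activated against non-myogenic cells gave 5281 calls. Leaving out 1 array gave 13 to 14, 3 to 7 and 15 to 16 member calls. The replicate numbers did not pair the samples (same-number correlations of -0.506 to 0.251), and with them as a replicate block 14, 2 and 15 members were called; the block ended the calls between quiescent and non-myogenic cells of Ezh1 (0.51, adjusted p = 0.0989), Suz12 1452364_at (0.81, 0.0664), Uhrf1 1415810_at (0.95, 0.0562) and Hells (0.63, 0.0777). The share of calls that were higher moved from 45% to 59.0% (unscaled) and 68.0% (median centring), from 53.4% to 23.6% (unscaled) and 40.1% (small-sample arrays), and from 48.8% to 68.3% (median centring). The median of all probe sets shifted by 0.50, 0.28 and 0.15 in the first comparison under median centring, unscaled values and quantile normalization, by 0.11 with the stricter filter, by -0.37 in the second unscaled, and by 0.51 and 0.16 in the last under median centring and quantile normalization.

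Signs turned as follows between activated and quiescent cells. Suz12 1427253_s_at was 0.065 unscaled, 0.30 under median centring, 0.075 on two-cycle arrays and -0.53 to 0.090 leaving out 1 array. Suz12 1452364_at was -0.20 on small-sample arrays and -0.19 to 0.38 leaving out 1 array. Between quiescent and non-myogenic cells, without the kit term Dnmt1 1422946_a_at was 0.10, Dnmt1 1435122_x_at -0.0041 and Dnmt3a 1423066_at -0.0046. On unscaled values Dnmt1 1435122_x_at was -0.29, Dnmt3a 1423063_at -0.27, Dnmt3a 1423066_at -0.17, Hmga2 1422851_at -0.027 and Eed -0.0083. Quantile normalization gave 0.0081 for Dnmt1 1422946_a_at. Small-sample arrays gave -0.22 for Dnmt1 1435122_x_at and -0.80 for Dnmt3a 1423066_at, two-cycle arrays 0.025 for Dnmt3a 1460324_at and -0.065 for Hmga2 1450781_at, and the replicate block -0.34 for Dnmt3a 1423066_at. Leaving out 1 array gave -0.17 to 0.092 for Dnmt1 1422946_a_at, -0.049 to 0.15 for Dnmt3a 1423063_at and -0.33 to 0.62 for Dnmt3a 1423066_at.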
